A study of Mus musculus with 12 samples.

Results

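The genes that decide the fate of pyruvate were followed by RNA-seq in the extensor digitorum longus (EDL), a leg muscle made up mainly of fast fibers. The set holds 10 genes, chosen by name: the lactate dehydrogenase genes Ldha and Ldhb, the monocarboxylate transporter genes Slc16a1 and Slc16a3, the mitochondrial pyruvate carrier genes Mpc1 and Mpc2, and the pyruvate dehydrogenase genes Pdha1, Pdk2, Pdk4 and Pdp1. All 10 were among the 17752 genes of the deposited table, and all 10 passed the filter on low values that left 12744 genes. The muscles came from male mice with a striated muscle deletion of Nrip1 (strNrip1-/-), in which a Cre recombinase driven by the muscle creatine kinase promoter acts on a floxed Nrip1 allele in heart and skeletal muscle, and from littermate controls (WT). Nrip1 encodes RIP140, a nuclear receptor corepressor. Mice of both genotypes were kept sedentary or given running wheels for 8 weeks from 8 weeks of age. Per the study's methods, running was voluntary and wheels were taken out of the cages ahead of testing endpoints. The 4 groups (WT sedentary, strNrip1-/- sedentary, WT trained and strNrip1-/- trained) held 3 libraries each. The labels do not say whether the 3 libraries of a group came from separate animals, so the p-values below measure the spread between these libraries.

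Pyruvate, the end product of glycolysis, has several fates in muscle. Lactate dehydrogenase converts it to lactate and back: the subunit encoded by Ldha prevails in fast glycolytic fibers and the one encoded by Ldhb in heart and oxidative fibers, and the subunits mix in tetramers. Slc16a3 (MCT4) is known chiefly for carrying lactate out of glycolytic fibers and Slc16a1 (MCT1) for its uptake into oxidative ones. Pyruvate that enters the mitochondrion through the MPC1 and MPC2 carrier is oxidized by the pyruvate dehydrogenase complex, which the kinases PDK2 and PDK4 switch off and the phosphatase PDP1 switches on.

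Expression is given as FPKM, fragments per kilobase of transcript scaled by depth, so levels of different genes can be compared per length. Depth was estimated at 20040000 to 28970000 fragments per library, and 3 fragments on a 2 kb transcript amounted to 0.0518 to 0.0749 FPKM, far below the level of every member. Differences are on the log2(FPKM + 0.5) scale with their standard error (SE), and a gene was called when the adjusted p-value was under 0.05 and the fold above 1.2. The targeted gene went against its labels: Nrip1 was at 2.53 to 4.76 FPKM in the 6 libraries labelled WT and at 14.9 to 20.7 FPKM in the 6 labelled strNrip1-/-. The study's methods place the loxP sites around exon 4, which carries the coding sequence, and a value for the whole gene does not show which exons were read. Groups are therefore named by their labels throughout, and each direction below is that of the labels.

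The lactate genes moved in opposite directions between the labelled genotypes. The start regions of the 3 lactate members called by genotype are shown. The stretches are the 250 bases before the annotated start, from RefSeq on GRCm38.p6, read 5′ to 3′ on the strand of the gene. Capitals mark ACGTG on either strand, a form of the core of the hypoxia response element, or CACGTG where both strands meet. Other forms of this core, such as GCGTG, were not searched. Ldha lies at chr7:46845554-46845803 (+), Slc16a3 at chr11:120948817-120949066 (+) and Ldhb at chr6:142507958-142508207 (-).
Ldha: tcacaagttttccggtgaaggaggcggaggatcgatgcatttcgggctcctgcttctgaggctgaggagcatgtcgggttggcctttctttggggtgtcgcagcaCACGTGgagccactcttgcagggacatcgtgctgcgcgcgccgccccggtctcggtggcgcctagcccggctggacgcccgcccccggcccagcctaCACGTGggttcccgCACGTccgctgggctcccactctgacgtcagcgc
Slc16a3: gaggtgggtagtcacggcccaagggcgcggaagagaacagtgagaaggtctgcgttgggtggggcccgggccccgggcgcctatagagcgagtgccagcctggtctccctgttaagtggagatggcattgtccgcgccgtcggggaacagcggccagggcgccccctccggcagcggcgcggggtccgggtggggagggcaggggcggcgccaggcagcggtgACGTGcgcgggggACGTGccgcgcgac
Ldhb: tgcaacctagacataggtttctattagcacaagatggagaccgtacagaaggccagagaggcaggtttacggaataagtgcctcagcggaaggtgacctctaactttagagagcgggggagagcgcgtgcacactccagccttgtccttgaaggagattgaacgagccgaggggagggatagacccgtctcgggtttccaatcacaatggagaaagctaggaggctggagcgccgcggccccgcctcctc
ACGTG stood at 3 places in the Ldha stretch, starting 145, 48 and 34 bases before the start. It stood at 2 places in the Slc16a3 stretch, 27 and 14 bases before the start. Ldhb had none. Over windows from 250 bases before to 50 after the start, 4 of the 12 windows of 9 members held ACGTG (Ldha, Slc16a1, Slc16a3 and Pdk2), beside 19.6% of all 32851 windows. Ldha and Pdk2 each had another start window (chr7:46846832-46847131 and chr11:95040826-95041125). These other windows held neither ACGTG nor any motif named below. No window of Pdp1 was available. ACGTG was not limited to genes lower under the strNrip1-/- label. Slc16a1 differed by 0.27 (sedentary) and 0.22 (trained) and Pdk2 by -0.02 and 0.22, with none of these called. CACGTG, the E-box, which overlaps this core, was in the windows of Ldha, Slc16a1 and Pdk2 (7.15% of all windows), TGACGTCA, the cyclic AMP response element, in that of Ldha (1.79%), and GGGCGG, the GC box, in 6 of 12 member windows (35.7%). AAGGTCA, the estrogen-related receptor core (4.72%), and AGGTCANAGGTCA, the spaced repeat bound by PPARs (0.0396%), were in none of the 12. Both strands were searched for each motif, and a match describes the letters of a window, not a site in use.

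Ldhb (ENSMUSG00000030246, chr6:142490249-142507957, GRCm38) showed the largest called difference of the set. Its level was 98.0, 149 and 130 FPKM in the libraries labelled WT sedentary and 251, 264 and 199 FPKM in those labelled strNrip1-/- sedentary. After training it was 117, 167 and 113 FPKM in the libraries labelled WT and 293, 305 and 321 FPKM in those labelled strNrip1-/-. Every library labelled strNrip1-/- was above every library labelled WT, and the trained strNrip1-/- libraries also lay above the sedentary ones of that label, while the WT groups overlapped. Ldhb was higher by 0.93 (SE 0.18, adjusted p = 0.0166) in sedentary and by 1.23 (SE 0.18, adjusted p = 0.00295) in trained libraries labelled strNrip1-/-, with means 1.89 and 2.31 times those of WT. The sedentary call was lost without WT replicate 1 (0.76, adjusted p = 0.0676) or 3 (0.96, adjusted p = 0.0514) and without strNrip1-/- replicate 1 (0.88, adjusted p = 0.0595) or 2 (0.85, adjusted p = 0.0549), and with only the 2 groups compared (0.93, adjusted p = 0.0621). Genes with a stretch of at least 95% identity could take reads from it, of which there was 1 in the table (Gm5514, mean 1.05 FPKM).

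Ldha (ENSMUSG00000063229, chr7:46841475-46855627) was the most abundant member. It was at 2189, 2221 and 2032 FPKM in the libraries labelled WT sedentary and at 1630, 1914 and 1484 FPKM in those labelled strNrip1-/- sedentary. With training the levels were 2182, 2449 and 2067 FPKM under the WT label and 1756, 1555 and 1583 FPKM under the strNrip1-/- label. The libraries labelled strNrip1-/- all lay below those labelled WT, and within each label the sedentary and trained groups overlapped. Ldha was lower by 0.45 in the trained comparison (log2 difference -0.45, SE 0.10, adjusted p = 0.0286), and the sedentary difference of -0.36 (SE 0.10, adjusted p = 0.0895) was not called. The trained call was lost without WT replicate 1 (-0.47, adjusted p = 0.0754) or 2 (-0.38, adjusted p = 0.0735) and without strNrip1-/- replicate 2 (-0.42, adjusted p = 0.111) or 3 (-0.43, adjusted p = 0.109), and without both trained replicate 2 libraries (-0.35, adjusted p = 0.192). The sedentary difference was called without strNrip1-/- replicate 2 (-0.46, adjusted p = 0.0294), with the same FPKM sum (-0.52, adjusted p = 0.000605) or the same nuclear FPKM sum in every library (-0.28, adjusted p = 0.0142) and with quantile normalization (-0.33, adjusted p = 0.0104). The 5 near-identical genes in the table had means of at most 0.386 FPKM.

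The balance of the subunit genes can be read within a library. Ldhb made up 4.28%, 6.30% and 6.01% of the summed Ldha and Ldhb level in the libraries labelled WT sedentary and 13.3%, 12.1% and 11.8% in those labelled strNrip1-/- sedentary. In the trained libraries the share was 5.07%, 6.39% and 5.20% under the WT label and 14.3%, 16.4% and 16.9% under the strNrip1-/- label. The group means were 5.53% ± 1.09 (SD, n = 3), 12.4% ± 0.809, 5.55% ± 0.728 and 15.8% ± 1.37 in the same order. Shares under the strNrip1-/- label were thus above all shares under the WT label, and Ldha remained the main subunit gene in all 12 libraries.

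Slc16a3 (ENSMUSG00000025161, chr11:120948480-120960868), the lactate exporter gene of glycolytic fibers, followed Ldha. It was at 231, 213 and 190 FPKM in the libraries labelled WT sedentary and at 129, 187 and 157 FPKM in those labelled strNrip1-/- sedentary. The trained values were 233, 287 and 225 FPKM for WT and 163, 138 and 144 FPKM for strNrip1-/-. The genotype groups were apart in both states, with the lowest WT sedentary library (190 FPKM) just above the highest strNrip1-/- sedentary one (187 FPKM). The trained difference was called (-0.74, SE 0.14, adjusted p = 0.0114), a mean 0.598 times that of WT, and the sedentary difference was -0.43 (SE 0.14, adjusted p = 0.132). The trained call was lost without strNrip1-/- replicate 2 (-0.69, adjusted p = 0.0536) or 3 (-0.72, adjusted p = 0.0514) and without both trained replicate 2 libraries (-0.58, adjusted p = 0.104). The sedentary difference was called with the same FPKM sum (-0.59, adjusted p = 0.0129) and with quantile normalization (-0.45, adjusted p = 0.0445).

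Slc16a1 (ENSMUSG00000032902, chr3:104638668-104658462), the uptake transporter gene, had the lowest level of the set. It was at 8.60 to 9.60 FPKM in WT sedentary and 10.4 to 12.2 FPKM in strNrip1-/- sedentary libraries, which did not overlap, and at 9.02 to 11.3 against 9.88 to 12.4 FPKM in trained ones, which did. Its differences of 0.27 (SE 0.12, adjusted p = 0.279) in sedentary and 0.22 (SE 0.12, adjusted p = 0.301) in trained libraries were not called. The genotype difference averaged over both training states was not called (0.24), and was called in 2 of 22 alternatives, without trained WT replicate 1 (0.29, adjusted p = 0.0423) or strNrip1-/- replicate 2 (0.30, adjusted p = 0.0422). The ratio of Slc16a3 to Slc16a1 FPKM was 26.9, 22.2 and 20.8 in WT sedentary and 12.2, 18.0 and 12.9 in strNrip1-/- sedentary libraries. In trained libraries it was 20.7, 31.6 and 24.97 for WT and 13.3, 14.0 and 11.6 for strNrip1-/-, so that the labelled genotypes did not overlap in this ratio either.

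**Figure D1:**
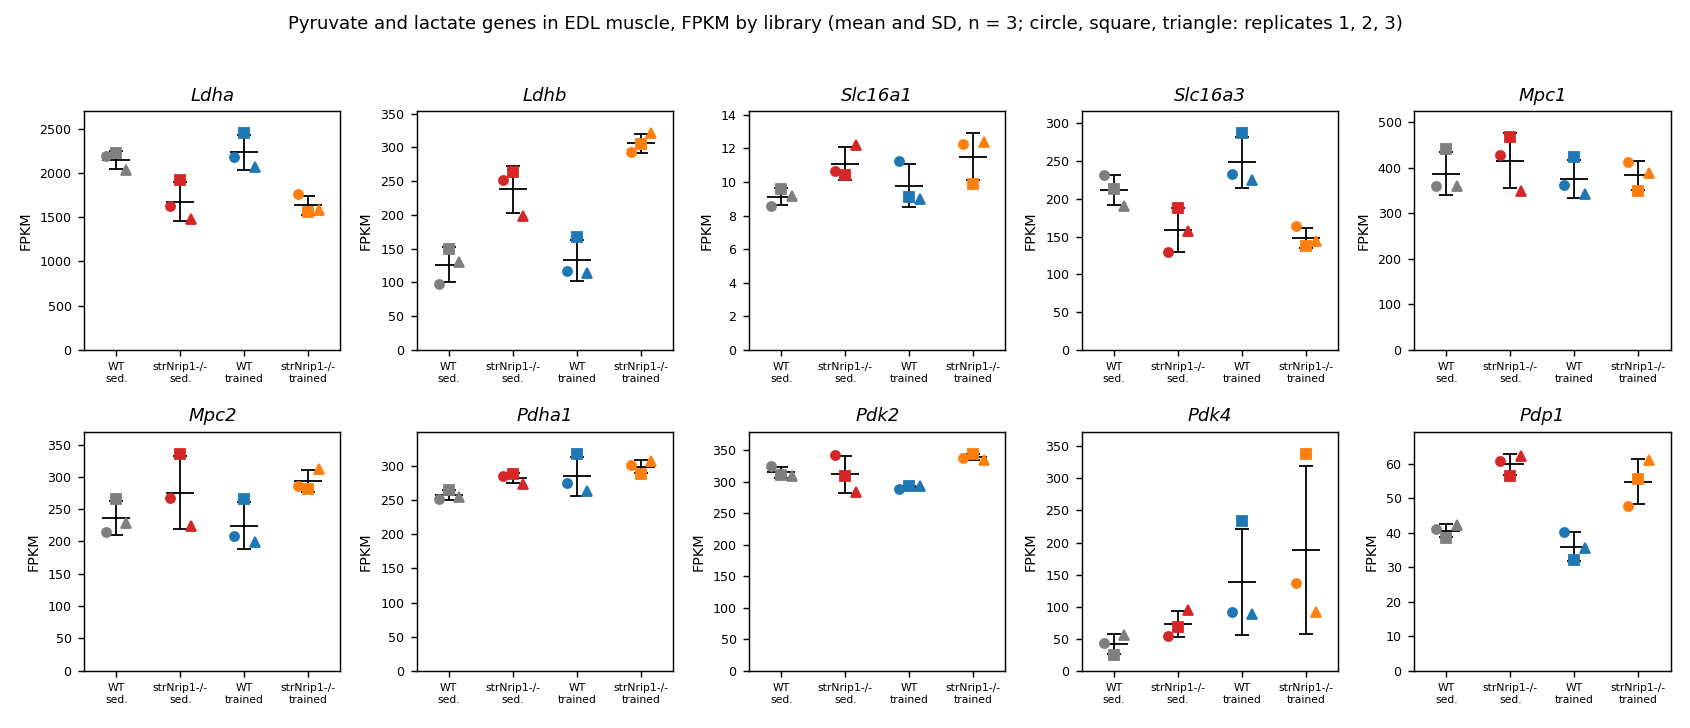
FPKM of the 10 members (linear axes from 0) in each of the 12 libraries, by labelled genotype and training (sed., sedentary), with the mean and SD of 3 libraries. Ldhb and Pdp1 lie higher, and Ldha and Slc16a3 lower, in the libraries labelled strNrip1-/-, and Pdk4 has the widest spread, with replicate 2 highest in both trained groups.

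**Figure D2:**
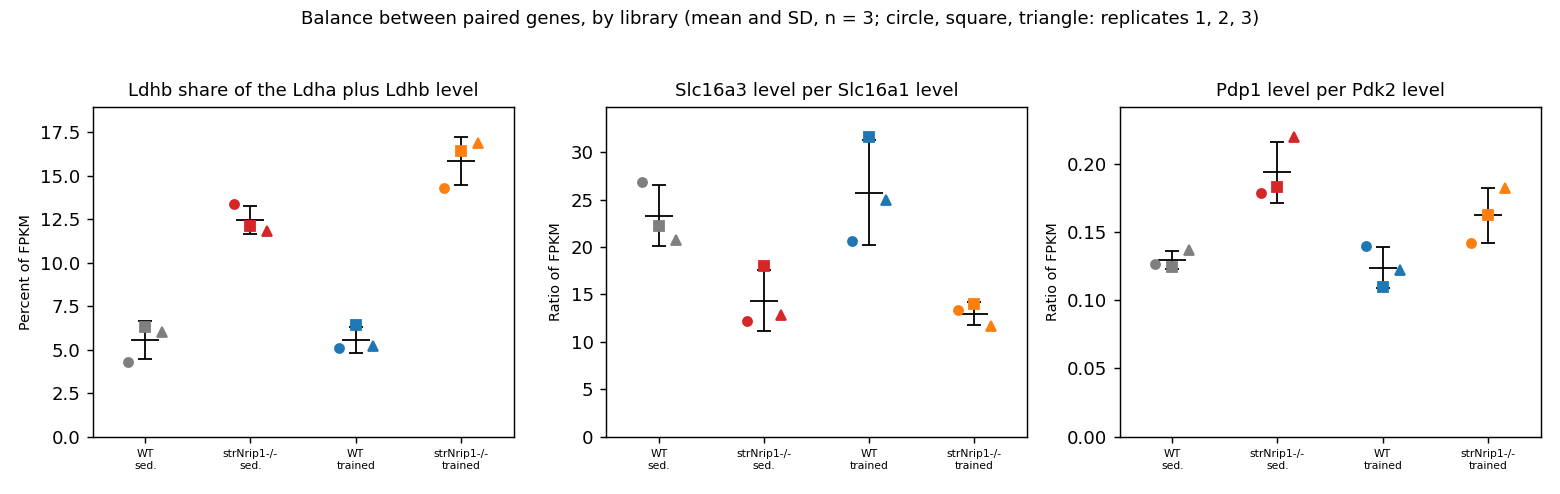
Ldhb as a percent of the Ldha plus Ldhb FPKM, and the ratios of Slc16a3 to Slc16a1 and of Pdp1 to Pdk2 FPKM, in each library, with the mean and SD of 3 libraries per group (sed., sedentary). The first balance runs from 4.28% to 6.39% under the WT label and from 11.8% to 16.9% under the strNrip1-/- label.

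The pyruvate carrier genes were not called at the settings used, and Mpc2 was called in some alternatives. Mpc1 (chr17:8282904-8297661) was between 342 and 468 FPKM in all 12 libraries, and its genotype differences were 0.10 (SE 0.13) in sedentary and 0.03 (SE 0.13) in trained libraries, of which the first turned below 0 with libraries set to the same FPKM sum and the second with quantile normalization. An antisense gene (4930506C21Rik) overlaps its exons, and the libraries did not keep strand. Mpc2 (chr1:165460637-165481214) was at 215, 265 and 229 FPKM in WT sedentary and 267, 336 and 225 FPKM in strNrip1-/- sedentary libraries. It was at 208, 266 and 199 FPKM in WT trained libraries and at 286, 282 and 312 FPKM in strNrip1-/- trained ones, where the groups did not overlap (difference 0.40, SE 0.15, adjusted p = 0.146). This difference was called with the same FPKM sum (0.46, adjusted p = 0.00913), the same nuclear FPKM sum (0.44, adjusted p = 0.0146) and quantile normalization (0.32, adjusted p = 0.0378), and the one averaged over both training states in 4 of 22 alternatives (lowest adjusted p = 0.00293). The ratio of Mpc1 to Mpc2 FPKM was 1.59 to 1.74 in WT trained and 1.24 to 1.443 in strNrip1-/- trained libraries, and 1.57 to 1.67 against 1.395 to 1.60 in sedentary ones.

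Among the genes of the pyruvate dehydrogenase complex and its switch, the phosphatase gene differed and the catalytic subunit and kinase genes did not pass the test. Pdp1 (ENSMUSG00000049225, chr4:11958184-11966452) was at 41.1, 38.6 and 42.2 FPKM in WT sedentary libraries and at 61.0, 56.5 and 62.2 FPKM in strNrip1-/- sedentary ones. In trained libraries it was at 40.3, 32.1 and 35.7 FPKM for WT and at 47.9, 55.7 and 61.0 FPKM for strNrip1-/-. The strNrip1-/- groups lay above both WT groups, and training states overlapped within each label. Pdp1 was higher by 0.55 (SE 0.10, adjusted p = 0.0138) in sedentary and by 0.60 (SE 0.10, adjusted p = 0.00682) in trained libraries, with means 1.47 and 1.52 times those of WT. The sedentary call was lost without WT replicate 1 (0.56, adjusted p = 0.0556) or 2 (0.52, adjusted p = 0.0595), without strNrip1-/- replicate 1 (0.54, adjusted p = 0.0513), and with libraries set to the same FPKM sum (0.40, adjusted p = 0.139). The trained call was lost without both trained replicate 2 libraries (0.50, adjusted p = 0.0675).

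Pdha1 (chrX:160122209-160138413), which encodes the catalytic E1 alpha subunit, stayed within 252 to 318 FPKM in all 12 libraries. Its genotype differences were 0.13 (SE 0.07, adjusted p = 0.409) in sedentary and 0.07 (SE 0.07, adjusted p = 0.642) in trained libraries. These changed sign with the same FPKM sum and with quantile normalization, respectively, and the antisense gene Map3k15 that overlaps it had a mean of 0.396 FPKM. Pdk2 (chr11:95026258-95041354), the kinase gene with the highest level, ranged from 284 to 344 FPKM. It was at 288, 293 and 293 FPKM in WT trained and at 338, 344 and 335 FPKM in strNrip1-/- trained libraries, a difference of 0.22 (SE 0.07, adjusted p = 0.0924) without overlap, while the sedentary difference was -0.02 (SE 0.07, adjusted p = 0.938), which was above 0 with the same nuclear FPKM sum. The ratio of Pdp1 to Pdk2 FPKM was 0.125 to 0.137 in WT sedentary, 0.178 to 0.219 in strNrip1-/- sedentary, 0.110 to 0.140 in WT trained and 0.142 to 0.182 in strNrip1-/- trained libraries.

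Pdk4 (chr6:5483351-5496309), the kinase gene known to rise with fasting and exercise, varied most. It was at 43.0, 24.8 and 55.8 FPKM in WT sedentary and at 54.5, 68.4 and 94.0 FPKM in strNrip1-/- sedentary libraries. Trained libraries had 92.2, 234 and 88.7 FPKM for WT and 136, 338 and 90.9 FPKM for strNrip1-/-, and the highest library was at 13.7 times the lowest. Replicate 2 was the highest library of both trained groups. The WT trained libraries were all above the WT sedentary ones, and the strNrip1-/- groups overlapped. The training difference was 1.66 in WT (SE 0.50, unadjusted p = 0.00669, adjusted p = 0.440) and 1.19 in strNrip1-/- libraries (SE 0.50, unadjusted p = 0.0362, adjusted p = 0.380), and neither was called. Without replicate 2 of the trained group these were 1.201 and 0.65. The genotype differences of 0.84 (SE 0.50, adjusted p = 0.463) in sedentary and 0.38 (SE 0.50, adjusted p = 0.738) in trained libraries were not called either, and the latter was -0.16 without strNrip1-/- trained replicate 2. Pdk4 made up 7.14% to 14.8% of the summed level of Pdk1, Pdk2, Pdk3 and Pdk4 in WT sedentary, 13.3% to 24.0% in strNrip1-/- sedentary, 22.6% to 43.3% in WT trained and 20.6% to 48.5% in strNrip1-/- trained libraries.

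**Figure D3:**
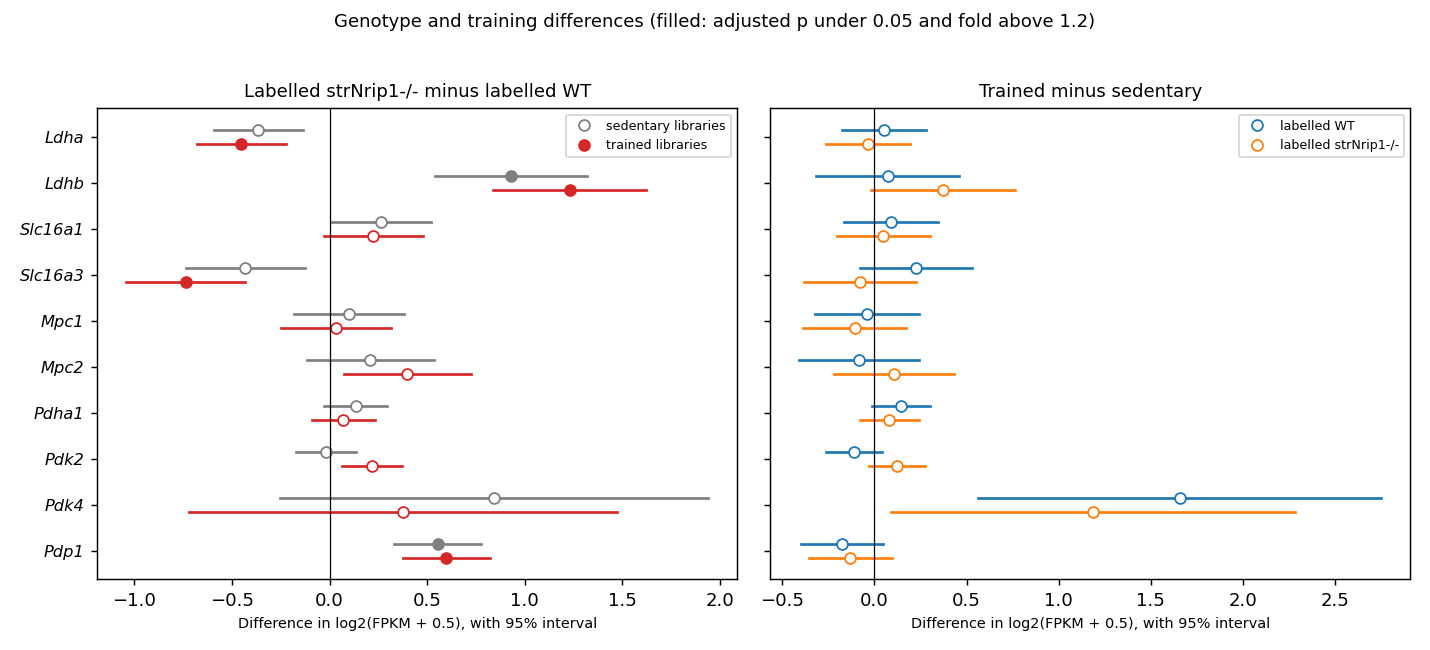
Differences in log2(FPKM + 0.5) of the 10 members with 95% intervals, between labelled genotypes in each training state and between training states in each labelled genotype. Filled points mark called genes: Ldhb and Pdp1 in both genotype comparisons and Ldha and Slc16a3 in trained libraries, with none for training.

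By genotype, 2 of 10 members were called in sedentary libraries (Ldhb and Pdp1, both higher), where 3.51% of all 12744 genes were called, and 4 of 10 in trained libraries (Ldhb and Pdp1 higher, Ldha and Slc16a3 lower), where 5.98% were. The median difference of the 10 members was 0.17 and 0.22, beside -0.001 and 0.007 over all genes. Groups did not overlap for 6 members in each state (4 higher and 2 lower), beside 20.7% of all genes in sedentary and 27.3% in trained libraries. The genotype difference averaged over both training states, a contrast added after seeing the data, was called for the same 4 members and for 8.80% of all genes, and it stayed called for all 4 in all 22 alternatives. It was 1.08 (SE 0.13, adjusted p = 0.000313) for Ldhb, 0.58 (SE 0.07, adjusted p = 0.000519) for Pdp1, -0.41 (SE 0.07, adjusted p = 0.00464) for Ldha and -0.58 (SE 0.10, adjusted p = 0.00316) for Slc16a3. None of these 4 changed direction between genotypes under any alternative scaling.

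Training called no member. With limma, 0% of the 12744 genes were called in WT and 0% in strNrip1-/- libraries (1061 and 1544 genes at an unadjusted p under 0.05), and Pdk4 was the only member under 0.05 unadjusted. Training groups did not overlap for 2 members under the WT label (Pdk4 higher, Pdk2 lower; 14.3% of all genes) and for 2 under the strNrip1-/- label (Ldhb and Pdha1 higher; 16.9%). Averaged over both labels, which was also added after seeing the data, 0.118% of genes were called and Pdk4 was not (1.42, SE 0.35, unadjusted p = 0.00192, adjusted p = 0.138). The genotype difference was not shown to depend on training: the interaction called 0% of genes (989 at an unadjusted p under 0.05) and no member, with 0.30 (SE 0.25, adjusted p = 0.796) for Ldhb and -0.30 (SE 0.20, adjusted p = 0.730) for Slc16a3.

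Of 10 other genes of lactate handling listed, 8 were in the table and 6 were tested, and Ldhd, the mitochondrial D-lactate dehydrogenase gene, was called higher in both states. For this list and those below, the shares called over all genes were 3.51% (sedentary), 5.98% (trained) and 8.80% (averaged comparison). It was at 25.5, 23.1 and 24.2 FPKM in WT sedentary, 30.6, 33.7 and 27.9 FPKM in strNrip1-/- sedentary, 22.1, 23.2 and 20.6 FPKM in WT trained and 29.3, 31.0 and 29.7 FPKM in strNrip1-/- trained libraries, with no overlap between genotypes (0.33, adjusted p = 0.0476, and 0.44, adjusted p = 0.00982). Bsg, the chaperone that brings MCT1 and MCT4 to the membrane, was called only in the averaged comparison (-0.34, SE 0.07, adjusted p = 0.00927), as was Slc16a7 (MCT2), at 0.163 to 1.70 FPKM in WT and 1.07 to 3.70 FPKM in strNrip1-/- libraries (1.36, SE 0.34, adjusted p = 0.0270).

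Of 8 other enzymes of pyruvate tested (of 9 listed), 3 were called in both states, beside 3.51% of all genes in sedentary and 5.98% in trained libraries. Pkm, which encodes the pyruvate kinase of muscle, was lower by 0.38 and 0.32 on the log2 scale (differences -0.38, adjusted p = 0.0206, and -0.32, adjusted p = 0.0301), with 2200 to 2413 FPKM in WT and 1668 to 1895 FPKM in strNrip1-/- libraries. Me1, the cytosolic malic enzyme gene, was lower as well (-0.45, adjusted p = 0.0467, and -0.56, adjusted p = 0.0120). Gpt, a gene of alanine aminotransferase, which exchanges pyruvate and alanine, was higher (0.45, adjusted p = 0.00929, and 0.58, adjusted p = 0.00179), whereas Gpt2, the mitochondrial form, was called lower in the averaged comparison (-0.45, adjusted p = 0.0115) and Me3, a mitochondrial malic enzyme gene, higher (0.28, adjusted p = 0.0232).

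Among 10 other genes of the pyruvate dehydrogenase complex tested (of 12 listed), Lias, which makes lipoic acid, was called higher in sedentary libraries (0.43, adjusted p = 0.0483) and Lipt1, which transfers it, in trained ones (0.55, adjusted p = 0.0175). Thus 1 of 10 was called in each state, beside 3.51% and 5.98% of all genes. The median difference of the 10 was 0.24 and 0.22, beside -0.001 and 0.007 over all genes, and 8 of 10 were above 0 in each state. In the averaged comparison Pdhx (0.30, adjusted p = 0.0195) and the second phosphatase gene Pdp2 (0.66, adjusted p = 0.0387) were called too. Pdp2 was at 0.853 to 1.26 FPKM in WT and 1.435 to 4.03 FPKM in strNrip1-/- libraries, far below Pdp1 per length.

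**Figure D4:**
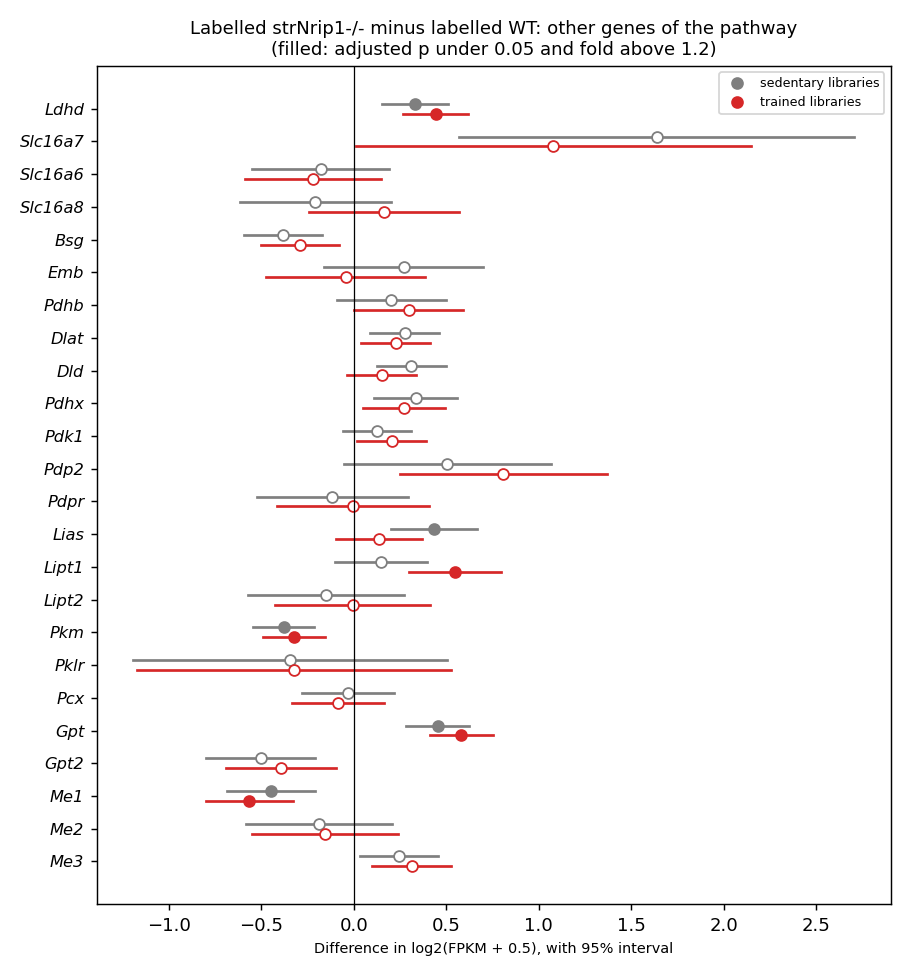
Differences in log2(FPKM + 0.5) between labelled genotypes, with 95% intervals, for the other lactate, pyruvate dehydrogenase and pyruvate enzyme genes tested, in sedentary and in trained libraries. Filled points (called) are Ldhd and Gpt on the higher side and Pkm and Me1 on the lower side in both states, with Lias in sedentary and Lipt1 in trained libraries.

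Pdk4 was set beside 11 genes known to rise with it in fasted muscle. None of the 11 was called for training. Their training differences were above 0 for 8 in WT and 9 in strNrip1-/- libraries (medians 0.19 and 0.30). Not all followed Pdk4: Angptl4 hardly differed (0.04 and 0.09). Mean Txnip was 198.5 FPKM in WT sedentary and 170 FPKM in WT trained libraries. Under the strNrip1-/- label it was 222.4 and 205.5 FPKM. Ucp3, the mitochondrial uncoupling protein gene, had the pattern of Pdk4: it was at 54.4, 161 and 62.5 FPKM in WT trained and 84.9, 134 and 62.6 FPKM in strNrip1-/- trained libraries, against 25.6 to 48.9 FPKM in all sedentary ones. Replicate 2 was again the highest of both trained groups (training differences 1.21, adjusted p = 0.464, and 1.025, adjusted p = 0.341). By genotype, the carnitine carrier gene Slc25a20 was called in both states (0.71, adjusted p = 0.00395, and 0.76, adjusted p = 0.00215), and Acot2 (0.99, adjusted p = 0.0277), Cpt1b (0.34, adjusted p = 0.0158) and Lpl (0.70, adjusted p = 0.0238), all of fatty acid use, in trained libraries. Acot1 was called in the averaged comparison (0.81, adjusted p = 0.0404).

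**Figure D5:**
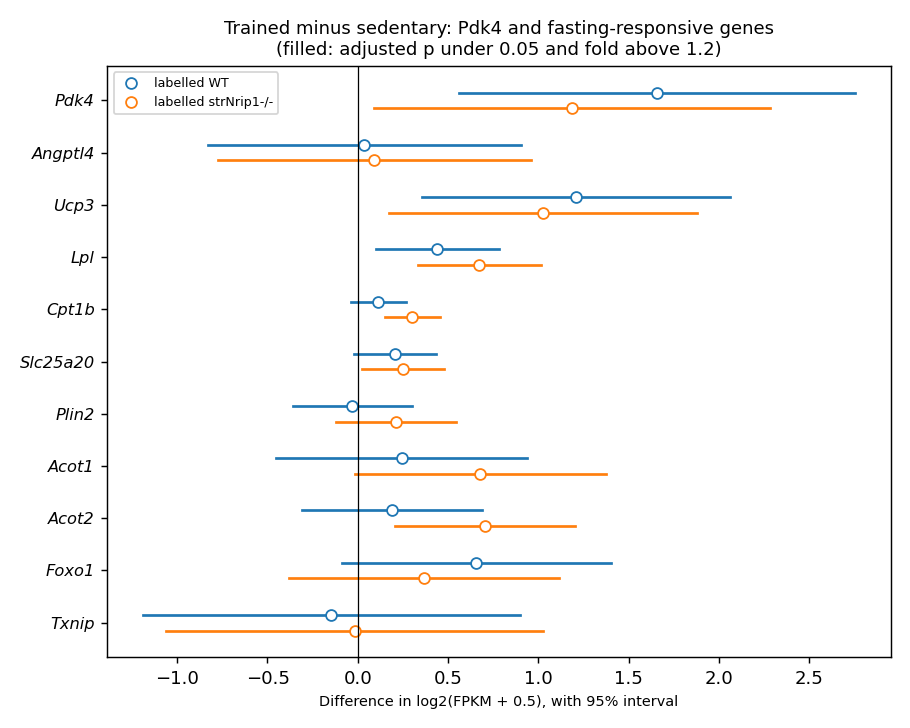
Training differences in log2(FPKM + 0.5), with 95% intervals, for Pdk4 and 10 of the fasting-responsive genes, in libraries labelled WT and labelled strNrip1-/-. No point is filled, so none of these genes was called, and Pdk4 and Ucp3 have the highest values in both labels.

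Of 14 listed regulators of these genes, Esrra, the estrogen-related receptor alpha gene, was called higher in both states (0.47, adjusted p = 0.00416, and 0.77, adjusted p = 0.000172), as was Esrrb (0.64, adjusted p = 0.0148, and 0.59, adjusted p = 0.0162). The coactivator gene Ppargc1b was called in trained libraries (1.17, adjusted p = 0.0341) and the hypoxia factor gene Epas1 in the averaged comparison (0.35, adjusted p = 0.0158). Hif1a, which encodes the factor known to drive Ldha and Slc16a3 in hypoxia, was at 3.89 to 5.06 FPKM in all 12 libraries (-0.04, adjusted p = 0.911, and -0.08, adjusted p = 0.729). A transcript level does not give the amount or activity of the protein, which these data do not measure.

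Over the 12 libraries, and with the genotype difference contributing to every value, Ldha and Slc16a3 ran together (Pearson r = 0.939 of the log2 values), and Pdp1 ran against both (r = -0.920 and -0.906). Ldhb was nearest to Mpc2 among the members (r = 0.849). Among the 6848 other genes that averaged 5 FPKM or more, the 3 most like Ldha were Tpi1 (r = 0.986), Eno3 (r = 0.982) and Myl1 (r = 0.974), the triose phosphate isomerase, muscle enolase and fast myosin light chain genes. Those most like Ldhb were Acaa2 (r = 0.989), Uqcrc1 (r = 0.989) and Etfa (r = 0.985), of fatty acid oxidation, respiratory complex III and electron transfer. Kmt5a (r = 0.956), Fkbp9 (r = 0.954) and Myl1 (r = 0.950) were most like Slc16a3, and Mccc2 (r = 0.927) and Sept11 (r = 0.912) were among those most like Pdp1.

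Markers of other fibers and cells moved with some of these results. All 12 fast muscle markers were found in every library, and their summed level was 142500 to 173700 FPKM in WT and 108400 to 138300 FPKM in strNrip1-/- libraries. Of these 12 genes, 2 were called lower in sedentary (Actn3 and Mybpc2) and 3 in trained libraries (these and Myl1). In the averaged comparison 7 were called lower (these with Acta1, Myh4, Mylpf and Pvalb). Over all genes, 3.51%, 5.98% and 8.80% were called in these comparisons. Myh1 went the other way and was not called. Its mean was 1197 FPKM in WT and 1395 FPKM in strNrip1-/- sedentary libraries, and 1760 against 2285 FPKM in trained ones. The 8 slow fiber markers summed to 62.1 to 570 FPKM in WT and 107 to 339 FPKM in strNrip1-/- libraries, with none called. The 8 endothelial markers summed to 93.4 to 101 FPKM in WT and 105 to 118 FPKM in strNrip1-/- sedentary libraries and to 90.5 to 110 against 118 to 120 FPKM in trained ones, apart in both states, with Tie1 called higher in trained libraries and Cdh5 and Tie1 in the averaged comparison. Adipocyte markers were apart in sedentary libraries (170.0 to 212 FPKM in WT, 229 to 343 FPKM in strNrip1-/-). They overlapped in trained ones (206 to 246 against 216 to 330 FPKM). The median sedentary difference was 0.99 over the 5 of 6 tested. Fabp4 made up most of the sedentary sum (171 of 190.9 FPKM on average in WT, 214 of 277.5 in strNrip1-/-). Within strNrip1-/- sedentary, replicate 3 had the highest sum (343 FPKM). Fibroblast markers overlapped in sedentary libraries (327 to 353 against 347 to 432 FPKM) and lay just apart in trained ones (384.4 to 441 FPKM in WT, 340.0 to 384.3 FPKM in strNrip1-/-). Erythroid (723 to 1811 against 808 to 1834 FPKM), macrophage (23.4 to 34.0 against 24.9 to 43.2 FPKM), Schwann cell (74.6 to 151 against 79.5 to 131 FPKM) and tendon markers (213 to 318 against 244 to 393 FPKM) overlapped between labels within each state, and no gene of these last 6 lists was called by genotype. No marker was at 0 in any library. Whether the fast fiber, endothelial, adipocyte or fibroblast markers have a part in the member differences was not tested, and in whole muscle fewer cells of a type and less RNA per cell cannot be told apart.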

How the data were processed

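RNA-seq of EDL muscle from 12 libraries in 4 groups of 3 was analysed, with groups and replicate numbers from the sample labels. Per the submitters' processing notes and the study's methods, the authors quantified reads with Salmon 1.10.2 against mm10 and summed transcripts to genes with tximport. The authors deposited the expression values as FPKM per gene and library. How FPKM was computed and from which annotation release is not given in the sources used here. The authors also deposited, for 4 comparisons, log2 fold changes and adjusted p-values from DESeq2 1.44.0 (8 columns), which were not used. The library kit does not keep strand.

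FPKM is not a count, so values were converted to log2(FPKM + 0.5), genes averaging under 0.5 FPKM were dropped, and the remaining 12744 were fitted with limma 3.58.1 in R 4.3.3 (4 group means, eBayes with a mean-dependent prior, two-sided tests, Benjamini-Hochberg adjustment over all genes within a contrast). A gene was called at an adjusted p under 0.05 and a fold above 1.2, and for the interaction by the adjusted p alone. Changes of low genes are understated on this scale. The fit was tested on simulated data with independent noise. The planted differences were larger than most member differences, so smaller ones were not covered. Depth was estimated from the steps of low FPKM values: between 99.1% and 99.8% of 405 to 467 values per library were within 0.15 of whole fragments. Such limits cover counting error only. Ratios and shares of members are descriptions without a test.

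Same-numbered libraries did not deviate together by the median (correlation of deviations -0.0095 over 18 pairs, 5 above 0.1), so no pairing was used. The highest were among replicate 2 libraries. WT sedentary gave 0.162 with strNrip1-/- sedentary and 0.195 with WT trained, and the latter 2 gave 0.241. With strNrip1-/- trained replicate 2 the values were -0.105 to -0.029. Named genes were the 10 members, list genes called in at least 1 contrast, the 3 genes most like each called member, and Nrip1; Ucp3, Hif1a and the genes overlapping or nearly identical to a member were added after their values were seen, and some genes under this rule are not reported here. The members and lists were chosen with earlier results of these data known. Positions are 1-based, from GENCODE M21 on GRCm38, and start windows from RefSeq. Alternatives covered the pseudocount, the filter, the scaling, the variance prior, the samples fitted, a replicate block and each library left out.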

Additional observations from a re-analysis of the deposited data

How the results depend on the processing

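Each alternative was fitted to all genes, and single genes were followed for the members and Nrip1 only. Calls of other named genes were not checked in this way. All 12 leave-one-out fits assume that a group reduced to 2 libraries varies like the others. Of 926 differences recomputed, 875 kept their direction and side of the threshold, 18 were no longer called, 15 became called and 18 changed sign. Members called in sedentary libraries numbered 1 with only the 2 groups compared and 4 with quantile normalization, and 0 to 2 with a library left out (0 without WT or strNrip1-/- sedentary replicate 1). In trained libraries they numbered 1 (Ldhb) with both trained replicate 2 libraries left out (chosen after seeing the data) and 2 to 4 with 1 library left out. The averaged comparison called 4 to 5. Genes called numbered 166 (sedentary) and 445 (trained) with only the 2 groups compared, 333 (trained) without both replicate 2 libraries, and 163 to 478 and 315 to 874 with a library left out (849 to 1193 averaged over states). For training they numbered 8 (WT) and 5 (strNrip1-/-) at a mean of at least 5 FPKM, 1 and 150 with the same FPKM sum, 2 and 3 with the same nuclear FPKM sum, 4 (WT) with quantile normalization, and 0 to 30 and 0 to 4 with a library left out. Averaged over labels they numbered 26 with the same FPKM sum, 28 with quantile normalization, 2 without both replicate 2 libraries, and 1 to 190 with a library left out. The interaction called 0 to 1.

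The same FPKM sum shifted the median of all genes by -0.14 in the sedentary genotype comparison, 0.17 for training in strNrip1-/- libraries and 0.21 for the interaction. It turned the split of higher and lower calls from 245 and 202 to 121 and 531 in sedentary and from 409 and 353 to 549 and 130 in trained libraries. The same nuclear sum gave 397 and 83, and 466 and 149. Values that changed sign were small: Mpc1 (-0.057 sedentary, same FPKM sum, and -0.079 trained and -0.030 averaged, quantile normalization), Pdha1 (-0.023 sedentary, same FPKM sum, and -0.0069 trained, quantile normalization) and Pdk2 (0.062 sedentary, same nuclear sum). The interaction turned to 0.13 (same FPKM sum) and 0.016 (without both replicate 2 libraries) for Ldha, and to -0.015 (quantile normalization) and -0.049 (without both replicate 2 libraries) for Pdp1. With a library left out, differences ran from -0.089 to 0.047 for Pdk2 (sedentary), -0.031 to 0.12 for Mpc1 and -0.16 to 0.83 for Pdk4 (both trained), and the interaction from -0.17 to 0.013 for Ldha and -0.035 to 0.14 for Pdp1. The causes were not tested. The replicate block, though the numbers were not shown to pair libraries, called 4 genes for training in WT and 441 and 756 by genotype, and it changed no call of a member except Mpc2 averaged over states (0.30, adjusted p = 0.0469). Depth was not the limit at these levels.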
